A study of Homo sapiens with 19 samples.

Results

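The integrin, laminin and basement membrane genes were described here across human liver organoids (HLOs) in 9 culture and treatment groups. The members are the genes whose symbol names an integrin α or β subunit, a laminin α, β or γ chain or a type IV collagen chain (COL4A1 to COL4A6), together with the linker genes NID1, NID2 and HSPG2. The rule found 47 such genes among the 36601 genes listed for an OA library, and each was matched to the other libraries by its Ensembl identifier. They comprise 18 integrin α subunits, 8 integrin β subunits, 12 laminin chains, 6 type IV collagen chains and 3 linkers. No expression value entered the rule.

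A basement membrane is a sheet of matrix that underlies epithelia and surrounds muscle, fat and vessel walls. Its scaffold joins a network of laminin heterotrimers, each built from an α, a β and a γ chain, to a network of type IV collagen, with nidogens (NID1, NID2) and perlecan (HSPG2) as linkers. Cells hold on to it through integrins, which are α/β heterodimers: most α chains pair with ITGB1, ITGA6 also pairs with ITGB4 in hemidesmosomes, and ITGAV pairs with ITGB1, ITGB3, ITGB5, ITGB6 or ITGB8. The αVβ6 and αVβ8 integrins are known to release TGF-β from its latent complex. In liver, laminins are scarce along normal sinusoids and are found around bile ducts and vessels.

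The organoids were grown from W01 (WiCell), an established human pluripotent stem cell (hPSC) line of wild-type genotype, so all groups share 1 genetic background. Ultra-low attachment (ULA) plates held untreated organoids, sampled at day 21 (3 libraries) and day 34 (2 libraries). The orbital shaker (OS) groups, each of 2 libraries, were sampled at day 25. They are an untreated group, 3 treated groups (TGFB1, 10 ng/ml; PA, 500 µM; OA, 500 µM) and a separate control group for each treatment. TGFB1 and PA were given for 5 days after 20 days of culture, per the labels, which do not spell out PA or OA and give OA in titles alone. Dissociation of the day 34 ULA and all OS organoids included an extra wash and a longer trypsin step, by 10 minutes, which the day 21 ULA organoids did not have, so day and dissociation cannot be told apart in the ULA comparison. Nothing says that replicates came from separate differentiations, and the p-values then measure only the spread between these libraries, which may be technical.

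The libraries are droplet single-cell libraries made with 10x Genomics 3′ version 3 chemistry. After filtering, 120240 cells remained, with 3089 to 12427 cells and 6880807 to 91184130 unique molecular identifiers (UMIs) per library. Levels are CPM, a gene's UMIs scaled to a common total over a library's summed counts. Cells were split by the UMIs they held. EPCAM-positive cells had a UMI of the epithelial adhesion gene EPCAM and none of COL1A2 or COL3A1. COL-positive cells had a UMI of either fibrillar collagen gene and none of EPCAM. Cells positive for both entered neither class and made up 1.93% to 32.0% of OS cells and 29.8% to 59.7% of ULA cells per library. Mesenchymal markers set the classes apart: 8 of them summed to 1313 to 6863 CPM in COL-positive cells and to 21.1 to 414 CPM in EPCAM-positive cells. The 6 epithelial keratin, cadherin and claudin markers summed to 712 to 4172 CPM and 3758 to 9545 CPM, ranges that overlap. In each library they were higher in EPCAM-positive cells. The 7 hepatocyte markers summed to 12.5 to 2357 CPM in COL-positive cells, highest in the PA libraries, and to 2795 to 25632 CPM in EPCAM-positive cells. COL-positive cells of some libraries carried more epithelial than mesenchymal marker RNA. These were the OA libraries (4172 and 3711 against 1376 and 1482 CPM) and ULA day 34 replicate 2 (2727 against 1313 CPM). In those of PA replicate 1, hepatocyte markers (2284 CPM) exceeded mesenchymal ones (1844 CPM).

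Of the 47 members, 40 reached 1 CPM in at least 1 library. The other members were the leukocyte integrin genes ITGAD, ITGAL, ITGAM, ITGAX, ITGB2 and ITGB7 and the collagen gene COL4A3, whose highest level in any library was 0.638 CPM. Of the 5 leukocyte markers, PTPRC reached at most 0.137 CPM in any library, CD14 0.0973 CPM, CSF1R 0.863 CPM, CD3D 9.63 CPM and CD68 82.1 CPM. Of the 6 endothelial markers, VWF reached at most 0.145 CPM, TIE1 0.230 CPM, CDH5 0.383 CPM, PECAM1 4.12 CPM, KDR 4.87 CPM and ERG 6.92 CPM. ITGA2B, the platelet integrin chain, reached at most 1.45 CPM and LAMB4 1.48 CPM, while LAMB2, a chain of many laminins, lay at 16.3 to 90.1 CPM. ITGAE, the α chain that binds E-cadherin as a dimer with ITGB7, was listed at 35.2 to 97.3 CPM in every library, although ITGB7 did not pass 0.536 CPM. The gene HASPIN lies inside ITGAE on the opposite strand. The sources used here do not state the strand setting of the counting.

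The 6 type IV collagen genes lie in 3 head-to-head pairs, which share the region between their start sites. RefSeq promoter windows of 250 bases before to 50 after the start (assembly GRCh38.p14) were found for 35 of the 47 members. The COL4A1 window is shown because most of it belongs to the COL4A2 window too, on chromosome 13, minus strand, at chr13:110307108-110307407. Capitals mark the 226 bases that both windows hold.
COL4A1: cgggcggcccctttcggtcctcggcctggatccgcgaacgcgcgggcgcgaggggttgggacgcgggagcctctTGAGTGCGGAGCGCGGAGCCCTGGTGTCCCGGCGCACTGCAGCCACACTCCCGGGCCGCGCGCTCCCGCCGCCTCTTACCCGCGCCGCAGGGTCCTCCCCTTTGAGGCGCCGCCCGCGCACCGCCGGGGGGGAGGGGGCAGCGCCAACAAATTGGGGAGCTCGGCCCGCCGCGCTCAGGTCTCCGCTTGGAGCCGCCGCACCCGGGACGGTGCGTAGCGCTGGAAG
The RefSeq starts of COL4A1 and COL4A2 lie 127 bp apart, those of COL4A3 and COL4A4 419 bp and those of COL4A5 and COL4A6 380 bp. The members of each pair are given side by side below. The LAMA3 window is shown because it was the only member window with more than 1 match to TGANTCA, the core of the AP-1 motif, searched on both strands. It lies on chromosome 18, plus strand, at chr18:23872770-23873069, and capitals mark the matches.
LAMA3: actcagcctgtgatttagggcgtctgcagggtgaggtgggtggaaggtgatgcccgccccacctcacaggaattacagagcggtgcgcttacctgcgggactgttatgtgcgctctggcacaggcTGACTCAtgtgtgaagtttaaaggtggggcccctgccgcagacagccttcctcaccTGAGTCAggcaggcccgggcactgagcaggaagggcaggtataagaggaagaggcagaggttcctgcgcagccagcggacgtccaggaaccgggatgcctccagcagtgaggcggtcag
The matches, TGACTCA and TGAGTCA, begin 125 and 69 bases before the start, at positions -125 and -69. The motif was present in 2 of the 35 member windows (LAMA3 and ITGA5) and in 7.76% of all 27305 windows. The SMAD-binding letters CAGAC, on either strand, were in 18 of the 35 and in 45% of all windows. A match describes the letters of the window and not a bound site. Counting at the 3′ end does not show which start site was used.

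**Figure D1:**
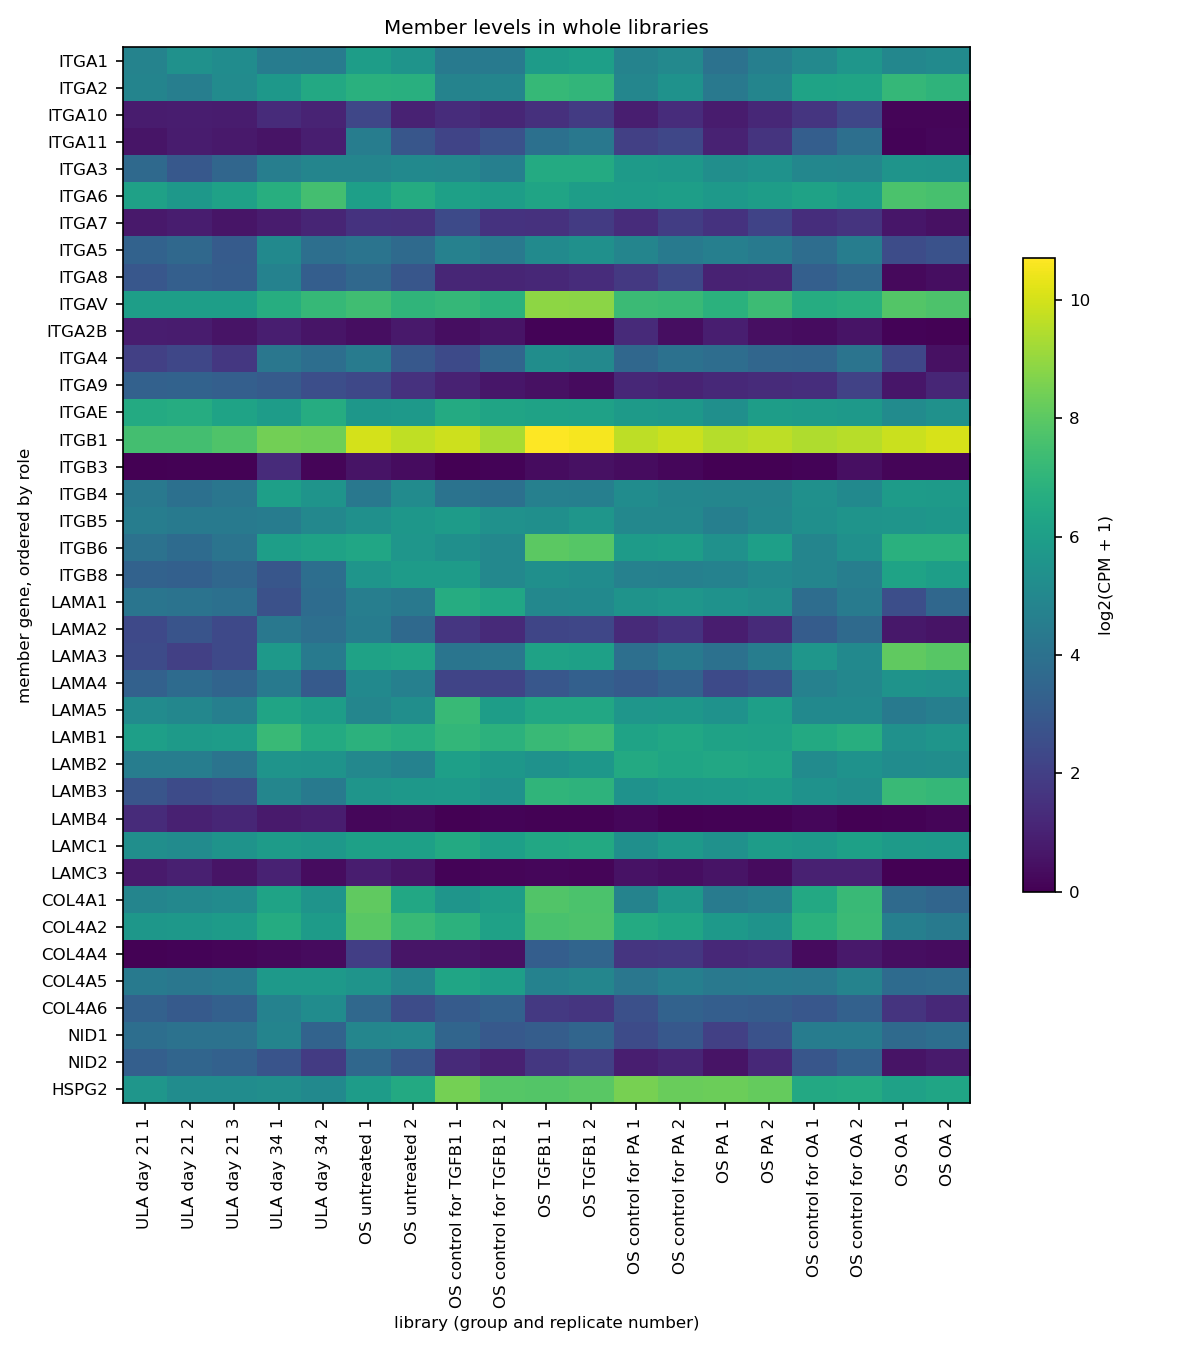
Level of 39 of the 40 members that reached 1 CPM (rows, ordered by role) in each of the 19 libraries (columns, by group and replicate), as log2(CPM + 1) on a colour scale. ITGB1 is bright in every column, and the TGFB1 and OA columns stand apart from their controls in ITGAV, ITGB6, LAMA3 and LAMB3.

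Levels over the 9 groups. ITGB1, the shared β chain, was present in every group and lay at 191 ± 19.1 CPM (SD, n = 3) in ULA day 21 organoids, 331 ± 13.2 CPM (n = 2) at day 34 and 720 ± 55.3 to 1588 ± 116 CPM (n = 2 each) in the OS groups. Libraries of the 2 culture formats were counted on different gene annotations, so the formats were not tested against each other. Untreated and control OS groups, which share the day and the format, were not alike. LAMA3 lay at 73.4 ± 4.52 CPM in untreated organoids, 40.9 ± 10.8 CPM in the OA control, 17.3 ± 0.728 CPM in the TGFB1 control and 17.2 ± 4.44 CPM in the PA control. LAMA1, the laminin α chain of early embryonic basement membranes, had another order, with 20.8 ± 2.57, 17.0 ± 5.45, 88.6 ± 12.1 and 45.8 ± 3.15 CPM in the same 4 groups. HSPG2 lay at 74.6 ± 20.8 and 88.9 ± 3.18 CPM in the untreated and OA control groups and at 294 ± 84.8 and 339 ± 40.7 CPM in the TGFB1 and PA controls, without overlap between these pairs of groups. The share of mesenchymal marker RNA moved with this split: the 8 markers summed to 1408 to 2668 CPM in untreated and OA control libraries and to 258 to 413 CPM in the TGFB1 and PA control libraries. The split also coincided with the gene list (36601 genes against 33538) and the software version in the file headers (6.0.2 against 3.0.2), so experiment, annotation and software cannot be told apart in it. Each treatment was therefore compared with its own control only, and levels from different experiments are descriptions.

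**Figure D2:**
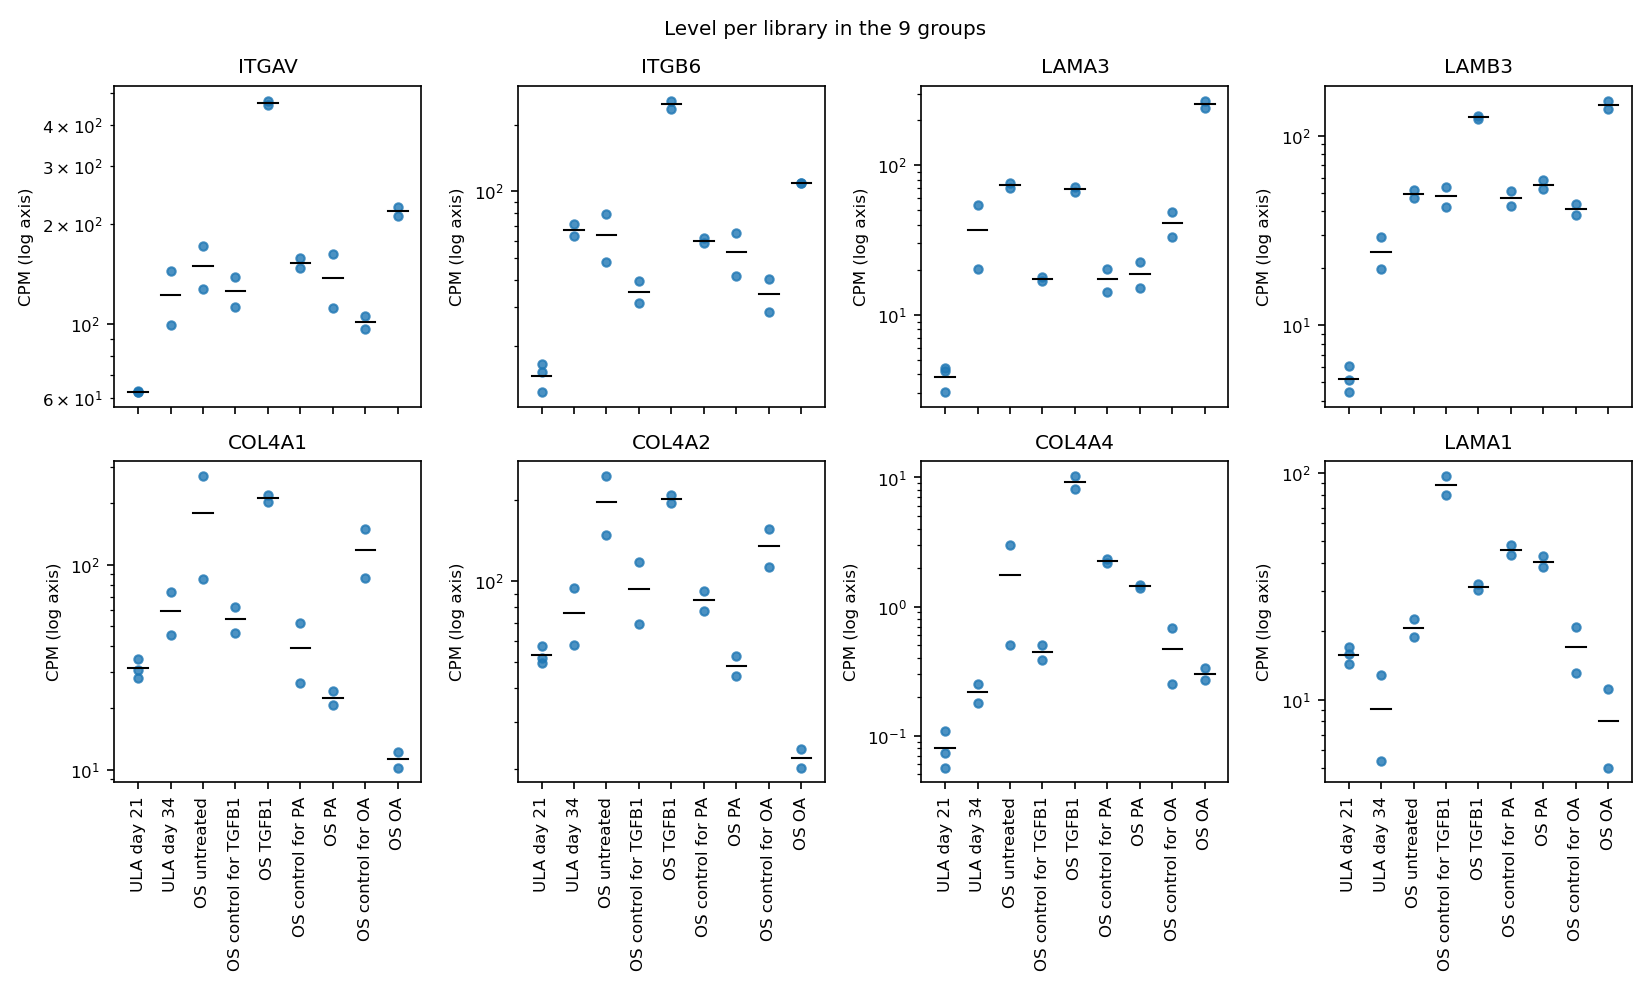
Level in CPM (log axis) of 8 members in each library (points) of the 9 groups, with the group mean as a bar. ITGAV and ITGB6 are highest in the TGFB1 libraries, LAMA3 and LAMB3 in the OA libraries, and the OA libraries are lowest for COL4A1 and COL4A2.

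Cell classes. Members differed widely between the classes of OS organoids, in both directions. In a fit that compared both classes within each library (13 libraries; OA replicate 2 had 38 COL-positive cells, under the minimum of 50), 16 of the 41 members tested were higher in COL-positive cells and 14 were lower, at an adjusted p under 0.05 (edgeR quasi-likelihood test, Benjamini-Hochberg over all genes). Of all 18747 genes tested, 50.6% were called, 15.9% as higher and 34.7% as lower. The ULA fit held 4 libraries, because day 34 replicate 1 had 23 EPCAM-positive cells. Its values are averages over the class differences of day 21 and day 34, and day 34 rests on replicate 2 alone. The COL-positive cells of that replicate carried more epithelial than mesenchymal marker RNA, as given above. In the ULA libraries, 17 of 40 members were higher and 16 lower, against 52.8% of 19877 genes called (25.6% higher, 27.2% lower).

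The laminin receptors of epithelia were on the EPCAM-positive side. ITGA6 was 3.17 ± 0.14 (log2, SE) lower in COL-positive cells, with an edgeR adjusted p of 3.1e-15. Its hemidesmosome partner ITGB4 had a log2 difference of -3.06, and ITGA3, the α chain of another laminin receptor, one of -1.46. ITGB6 had -1.77 and ITGB8 -2.16, while their partner ITGAV differed by -0.42. The OS values are averages over the class differences of the OS groups, and ITGB6 went the other way with OA. It lay at 411 and 461 CPM in COL-positive cells of the OA libraries and at 98.6 and 97.7 CPM in their EPCAM-positive cells. OA replicate 2 is outside the fit. ITGB1 itself had 0.00 ± 0.05 (adjusted p = 1) in OS cells, but 0.19 (adjusted p = 0.0011) with library totals in place of TMM scaling, and 0.18 ± 0.07 (adjusted p = 0.040) in ULA cells. In OA control libraries, for instance, EPCAM-positive cells had 86.5 and 80.9 CPM of ITGA6 and COL-positive cells 5.16 and 2.28 CPM.

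The collagen receptors and several fibronectin-type receptors were on the other side. ITGA11, a receptor for fibrillar collagen, was higher in COL-positive cells by 7.26 ± 0.80, ITGA10 by 6.07 ± 0.41 and ITGA1 by 2.68 ± 0.15, whereas ITGA2, also a collagen receptor, was lower (log2 difference -0.97). ITGA8 was higher by 8.68 ± 0.36. It lay at 40.1 and 36.7 CPM in COL-positive cells of the OA control and at no more than 0.260 CPM in their EPCAM-positive cells. ITGA4, ITGA9 and ITGA5 were higher by 3.72, 3.17 and 1.72. The same directions were called in ULA cells for ITGA1, ITGA10, ITGA11, ITGA8, ITGA4, ITGA9 and ITGA5, with smaller values for ITGA11 (2.50) and ITGA10 (1.26). The ITGA10 call in ULA cells was lost under at least 1 alternative.

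The laminins split by chain. LAMA3 and LAMB3, chains of laminins that anchor epithelia, lay on the EPCAM-positive side, LAMA3 at -4.47 ± 0.16 and LAMB3 at -3.52 ± 0.12 (edgeR adjusted p of 1e-16 and 3.9e-17). LAMA1 at -3.13 and LAMA5, the main α chain of adult epithelia, at -1.24 were on that side too. LAMA2, the muscle and mesenchyme chain, was higher in COL-positive cells by 6.03 ± 0.23 and LAMA4, a chain of vessels and fat, by 3.11 ± 0.37. The widely shared LAMC1 chain differed by 0.01 ± 0.07 in OS cells (adjusted p = 1; 0.20 with library totals, adjusted p = 0.020) and by -0.62 ± 0.10 in ULA cells. In the OS fit NID2 had no SE and the SE of LAMC3 was too large to use. In ULA cells both were called, NID2 higher in COL-positive cells by 7.43 ± 0.46 and LAMC3 by 5.86 ± 0.94.

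The head-to-head collagen pairs differed in class. COL4A1 and COL4A2, which form the common α1α1α2 trimer, were higher in COL-positive cells by 3.67 ± 0.13 and 2.69 ± 0.10. COL4A4 was lower (log2 difference -5.12 ± 0.68), and its partner COL4A3 had too few counts to give an SE. COL4A5 differed by 0.18 ± 0.09 (adjusted p = 0.094; 0.36 with library totals, adjusted p = 0.0047). COL4A6 was called higher by 0.40 ± 0.16 (adjusted p = 0.041), and this call was lost, with a log2 difference of -0.03 (adjusted p = 0.88), without OA replicate 1, which had 60 COL-positive cells. It was also lost without TGFB1 replicate 1 (adjusted p = 0.076), TGFB1 control replicate 2 (0.85), PA replicate 2 (0.064) or PA control replicate 2 (0.50). NID1 was higher by 2.05 ± 0.19, and HSPG2 was lower (log2 difference -2.08 ± 0.08). Of the 30 calls in the OS fit, 29 were kept under every alternative run, and of the 33 in the ULA fit, 28.

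**Figure D3:**
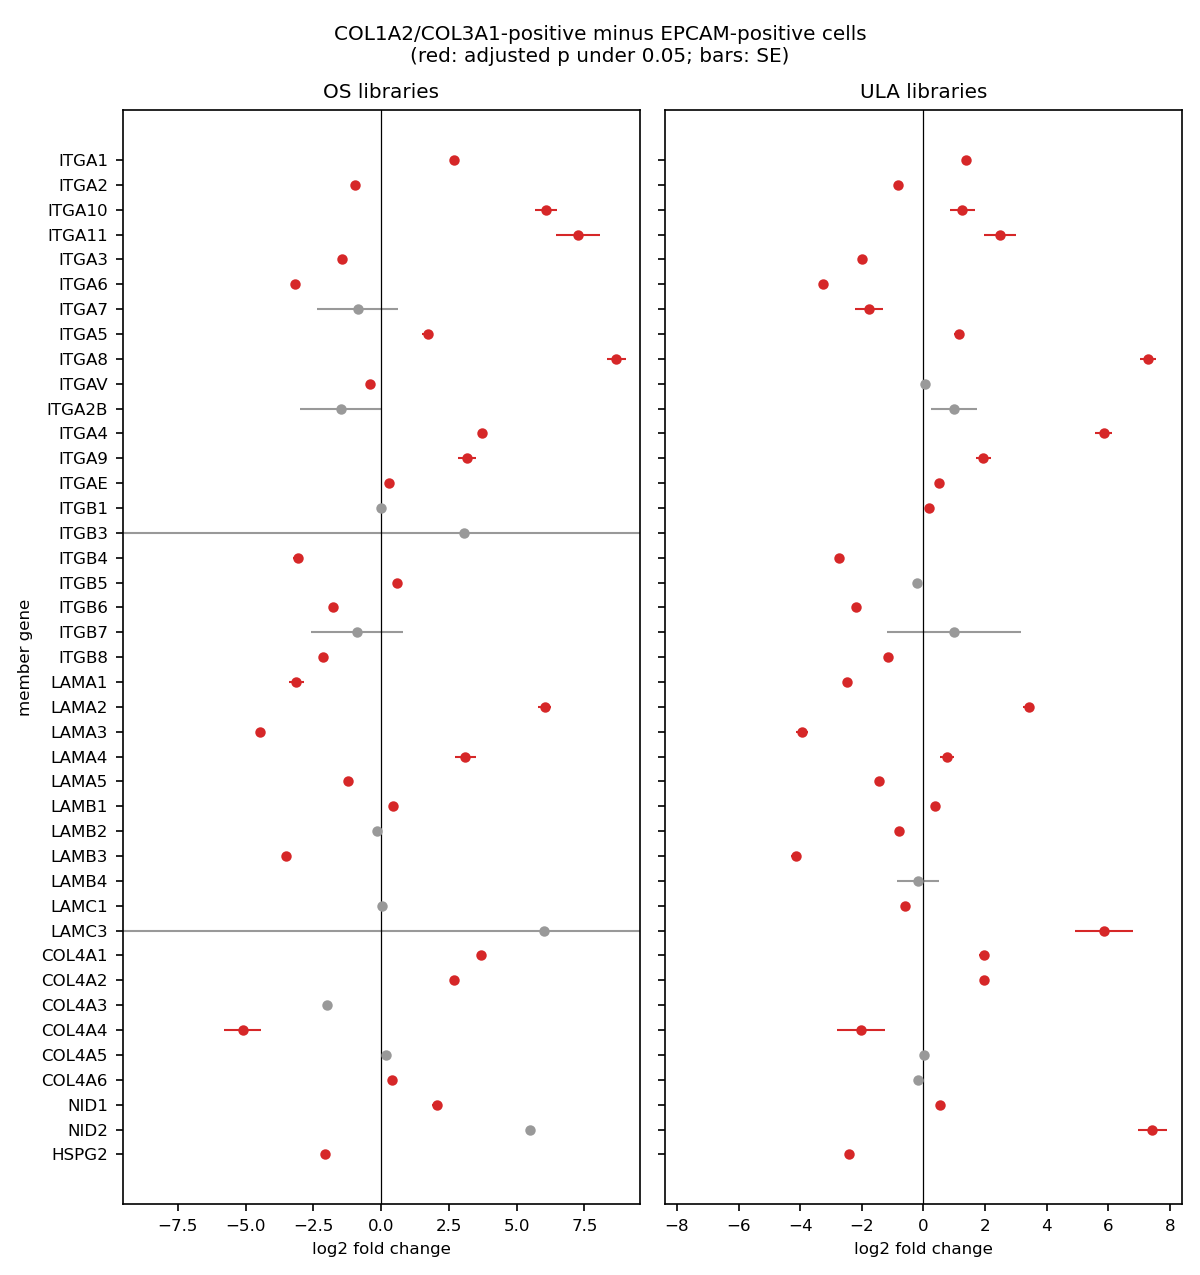
Log2 fold change of the tested members (1 not drawn) between COL-positive and EPCAM-positive cells (x axis; positive is higher in COL-positive cells) in OS and ULA libraries, with SE bars and called members in red. OA replicate 2 and ULA day 34 replicate 1 are outside these fits. LAMA3, LAMB3, ITGA6, ITGB4 and HSPG2 lie left of 0 in both panels and ITGA8, LAMA2, ITGA4, COL4A1 and COL4A2 right of 0; the bars of ITGB3 and LAMC3 in the OS panel run past the axis, and COL4A3 and NID2 have no SE there.

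TGFB1. The first treatment comparison asked how TGFB1, the main profibrotic cytokine of the liver, altered the members relative to its own control libraries. In whole libraries 22 members were higher, 3 were lower and 18 were not called, of 43 tested (edgeR quasi-likelihood test over 14 OS libraries in 1 fit). Of all 19366 genes tested, 22.2% were called, 10.9% higher and 11.3% lower. The median log2 fold change was 0.84 over the members and -0.05 over all genes. In simulated data for this comparison, 28 of 100 genes changed 2-fold and 84 of 100 changed 4-fold were called. In such summed libraries, more cells of a type and more RNA per cell cannot be told apart. The share of COL-positive cells, after thinning each cell to 1000 UMIs, was 10.9% ± 0.310 with TGFB1 and 4.59% ± 0.233 in its control (exact permutation p = 0.33, the smallest that 2 against 2 libraries allow), and the 8 mesenchymal markers summed to 1029 and 1248 CPM against 330 and 350 CPM.

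Among the integrins, 11 of 23 tested were higher and none of the 23 was lower. ITGB6, the epithelial β chain of the TGF-β-activating αVβ6 dimer, lay at 39.3 and 31.4 CPM in the control libraries and 257 and 236 CPM with TGFB1. The groups were far apart, and ITGB6 was higher by 3.01 ± 0.26 (log2, SE; edgeR adjusted p = 8.2e-06). ITGAV, its α chain, lay at 138 and 113 CPM in the control and 473 and 457 CPM with TGFB1 (2.10 ± 0.22, adjusted p = 3e-05). ITGB8 and ITGB5, which also pair with ITGAV, were not called, at log2 fold changes of -0.01 ± 0.26 and 0.00 ± 0.20. ITGB3, the partner of ITGAV on many mesenchymal cells, was called on few UMIs: 0 and 4 in the control libraries and 13 and 15 with TGFB1 (2.67 ± 0.83, adjusted p = 0.036).

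Among the collagen-binding α chains ITGA2, ITGA11 and ITGA1 were higher, and ITGA10 was not called (0.84 ± 0.50). ITGA2 rose from 26.3 and 28.1 CPM to 142 and 131 CPM (2.52 ± 0.24, edgeR adjusted p = 1.4e-05). ITGA1 rose from 20.2 and 19.9 CPM to 58.6 and 64.8 CPM (1.81 ± 0.23), and ITGA11 from 3.60 and 5.45 CPM to 14.5 and 18.4 CPM (2.00 ± 0.48). In none of these did the groups overlap. Of the laminin-binding chains, ITGA3 rose from 30.7 and 23.9 to 92.7 and 91.9 CPM (1.97 ± 0.19), whereas ITGA6 was not called (0.32 ± 0.23, adjusted p = 0.34). ITGB1 rose from 961 and 633 to 1670 and 1506 CPM (1.21 ± 0.22, adjusted p = 0.0017). ITGA4, ITGA5 and ITGB4 were also called, at 2.36, 0.95 and 0.86.

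The laminins gave 6 higher and 1 lower of 11 tested. LAMA3 and LAMB3 both rose. LAMA3 lay at 16.8 and 17.8 CPM in the control and 71.8 and 66.3 CPM with TGFB1 (2.19 ± 0.27, edgeR adjusted p = 0.00011) and LAMB3 at 53.9 and 41.9 against 128 and 122 CPM (1.59 ± 0.19). LAMA1 was the lower one, at 97.2 and 80.1 CPM in the control and 30.6 and 32.5 CPM with TGFB1 (-1.29 ± 0.28, adjusted p = 0.0058). LAMA2 (1.30), LAMA4 (1.25) and LAMB1 (0.53) were also higher, while LAMA5 and LAMC1 were not called, at -0.06 ± 0.30 and 0.36 ± 0.20. Without TGFB1 replicate 1 the LAMA1 call was lost (-1.25, adjusted p = 0.064).

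All 6 type IV collagen genes were called, 4 higher and 2 lower, and the members of a head-to-head pair had the same sign. The calls of COL4A1, COL4A2, COL4A4 and COL4A5 were kept under every alternative run. COL4A1 rose from 46.5 and 62.0 to 220 and 203 CPM (2.14 ± 0.43, edgeR adjusted p = 0.0034) and COL4A2 from 118 and 69.3 to 195 and 209 CPM (1.33 ± 0.26). COL4A4, a chain of the specialised α3α4α5 trimer of kidney and lung, rose from 0.506 and 0.382 to 8.18 and 10.3 CPM (4.60 ± 0.64, adjusted p = 0.00023). COL4A3 had 0 and 4 UMIs in the control libraries and 21 and 25 with TGFB1 (adjusted p = 0.019), a call lost without TGFB1 replicate 1 (adjusted p = 0.059), TGFB1 replicate 2 (0.082) or control replicate 1 (0.089). COL4A5 fell from 77.0 and 62.3 to 26.1 and 28.8 CPM (-1.14 ± 0.20) and COL4A6 from 7.40 and 9.08 to 2.43 and 2.17 CPM (-1.66 ± 0.38). The COL4A6 call was lost without TGFB1 replicate 1 (adjusted p = 0.056) or replicate 2 (0.066). Among the linkers NID2 was called (1.38 ± 0.41, adjusted p = 0.028), on levels of 1.45 and 0.994 against 2.29 and 3.11 CPM. NID1 and HSPG2 were not called, at 0.31 ± 0.27 and -0.07 ± 0.25.

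Of the genes of 4 neighbouring lists, beside 22.2% of all genes called, counts were as follows. Of 15 other integrin ligands, 8 were higher and 1 lower, among them fibronectin (FN1, 2.93) and tenascin C (TNC, 3.26) as higher and vitronectin (VTN, -2.46), a hepatocyte product, as lower. Of 16 other basement membrane genes, 7 were higher and 1 lower. Of 24 adhesome genes, which couple integrins to actin, 8 were higher and none was lower, with FERMT1, an epithelial integrin activator, at 2.37. Of 9 laminin receptor and hemidesmosome genes, 1 was higher and 1 lower. Of the 25 member calls, 14 were kept under every alternative run, among them ITGA1, ITGA2, ITGA3, ITGAV, ITGB1, ITGB6, LAMA3, LAMA4, LAMB3, COL4A1, COL4A2, COL4A4 and COL4A5. Without TGFB1 replicate 1, and likewise without replicate 2, 15 members were called.

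**Figure D4:**
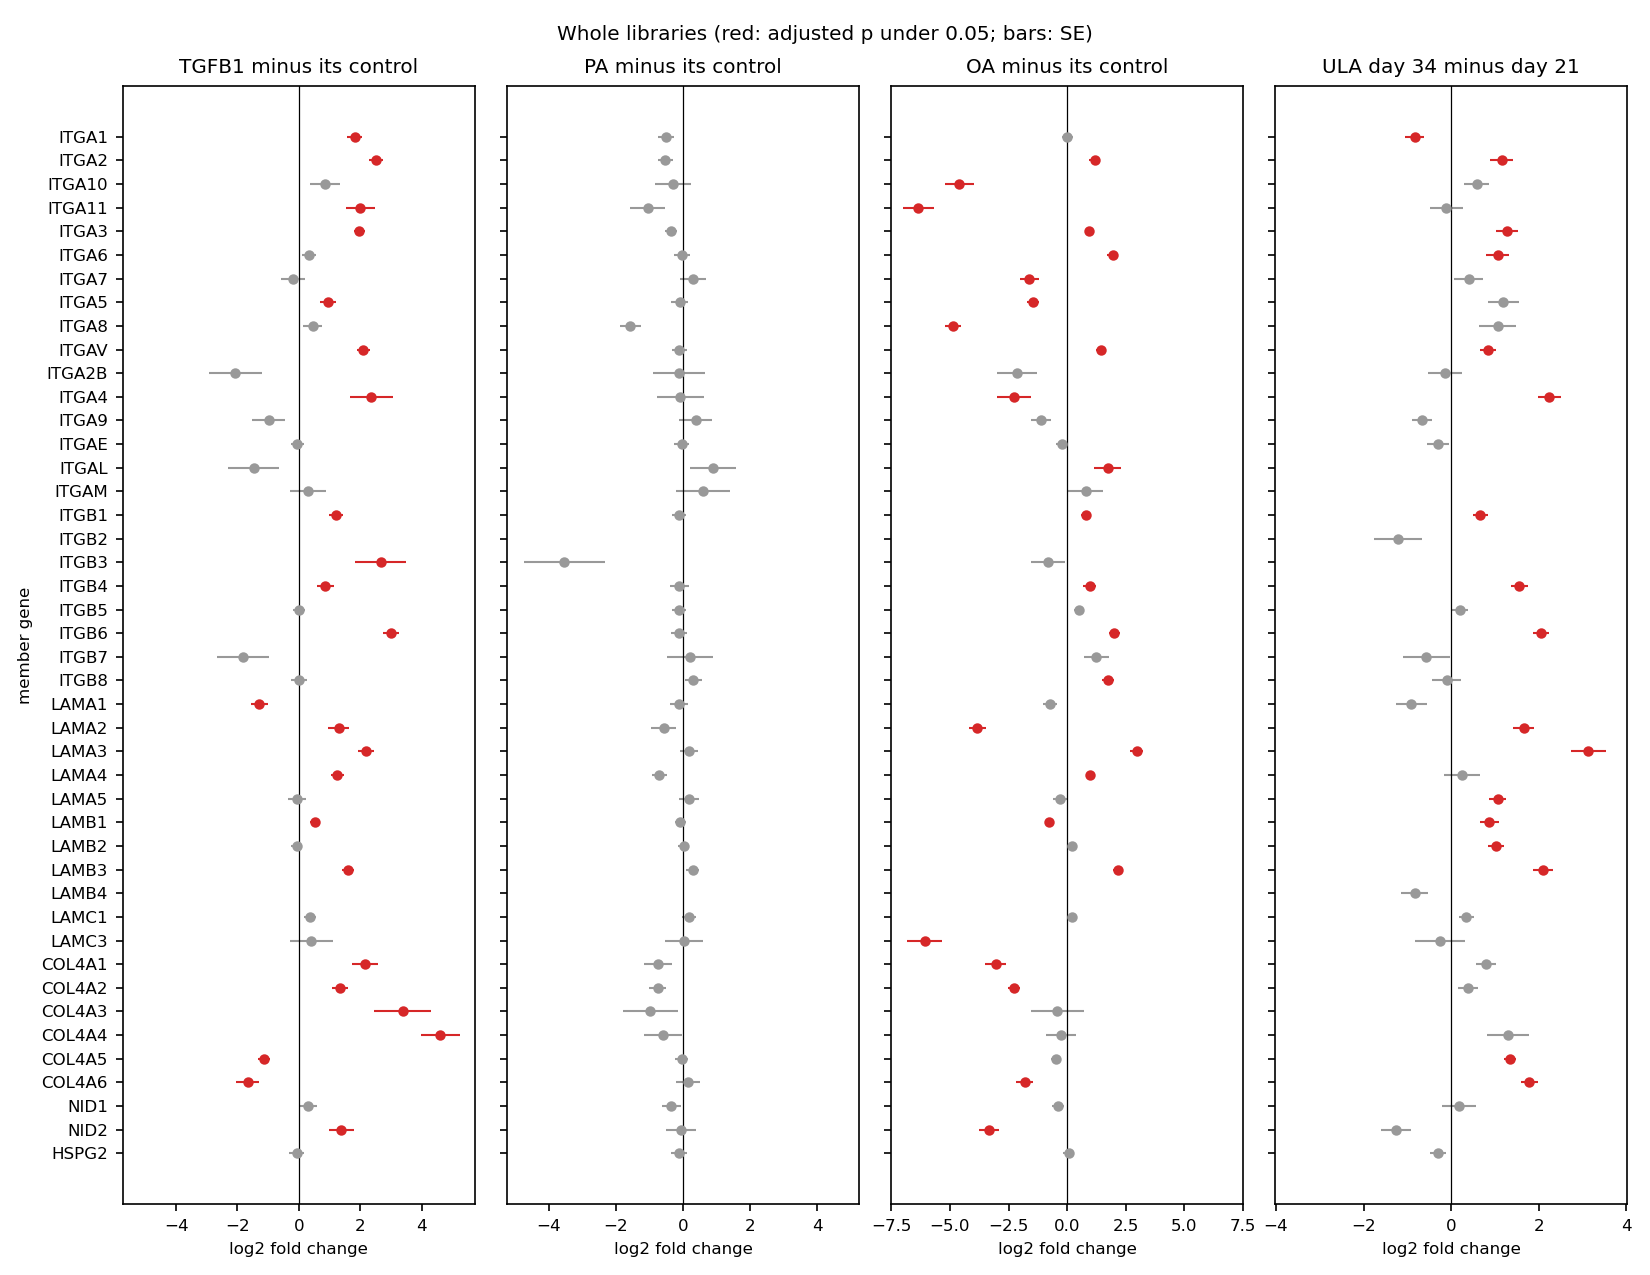
Log2 fold change of the tested members (1 not drawn) in whole libraries (x axis, SE bars, called members in red) for TGFB1, PA and OA against their own controls and for ULA day 34 against day 21. Most called members lie right of 0 in the TGFB1 and ULA panels and to both sides of 0 in the OA panel, and no member is red in the PA panel.

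TGFB1 by cell class. Within EPCAM-positive cells, 19 of the 38 members tested were higher with TGFB1 and 3 were lower, beside 25.0% of 17527 genes called (12.3% higher, 12.7% lower). ITGB6 lay at 42.5 and 33.2 CPM in control EPCAM-positive cells and at 290 and 274 CPM with TGFB1 (3.11 ± 0.26, edgeR adjusted p = 3.4e-06). ITGAV rose from 144 and 111 to 515 and 515 CPM (2.22 ± 0.24), LAMA3 from 18.8 and 19.1 to 82.4 and 79.0 CPM (2.28 ± 0.24) and COL4A1 from 17.2 and 17.5 to 105 and 88.3 CPM (2.67 ± 0.32). LAMA1 fell from 95.4 and 84.4 to 33.9 and 35.9 CPM (-1.16 ± 0.34, adjusted p = 0.023), a call lost when any 1 of the 4 libraries was left out (adjusted p of 0.051 to 0.14). ITGA1 lay at 8.89 and 5.56 CPM in the control and 32.9 and 29.5 CPM with TGFB1, and ITGA4 at 3.45 and 7.70 against 35.0 and 29.4 CPM, both called as higher. Both had higher levels in COL-positive cells, and the level that free RNA adds to EPCAM-positive cells was not estimated. Other members with higher levels in COL-positive cells were mixed in EPCAM-positive cells. ITGA11 lay there at 0 and 0.305 CPM in the control and 0.917 and 1.58 CPM with TGFB1. LAMA2 lay there at 0 and 0.284 against 1.20 and 1.14 CPM. ITGA10 lay at 0.667 and 0.262 against 0.253 and 0.202 CPM, and NID2 at 0.111 and 0.0654 against 0.126 and 0.0672 CPM. ITGA8 lay at 0.111 and 0 against 0.0316 and 0 CPM. In COL-positive cells ITGA8 lay at 20.2 and 23.5 CPM in the control and 14.1 and 12.6 CPM with TGFB1. The 8 mesenchymal markers moved with ITGA1 and ITGA4, from 44 and 21.7 CPM in control EPCAM-positive cells to 356 and 414 CPM with TGFB1. Other marker sums of these cells differed too: cycling markers lay at 253 and 143 CPM in the control and 5.72 and 2.99 CPM with TGFB1, gut epithelial markers at 233 and 192 against 77.2 and 97.9 CPM, hepatocyte markers at 2795 and 4173 against 6160 and 5229 CPM, and epithelial markers at 3758 and 5977 against 9545 and 7459 CPM. The part of these in the result was not tested.

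Within COL-positive cells no member of the 36 tested was called, 7 had an unadjusted p under 0.05 (1896 of all genes did), and 0.0211% of 14189 genes (3 genes; 0.0141% higher, 0.00705% lower) were called by edgeR. DESeq2 called none of the members either. The control libraries of this class were uneven in depth, with 439 and 333 cells at a median of 1320 and 5042 UMIs. In control replicate 1, 4300 of 9615 kept cells had no UMI of EPCAM, COL1A2 or COL3A1, against 418 of 8505 in replicate 2. Control replicate 1 had 37.6 CPM of ITGA6 and 17.5 CPM of ITGB6 in its COL-positive cells and control replicate 2 had 4.23 and 3.29 CPM. The TGFB1 libraries had 4.38 and 3.02 CPM of ITGA6 and 7.19 and 7.29 CPM of ITGB6. In these cells hepatocyte markers summed to 887 CPM in control replicate 1, 127 CPM in control replicate 2 and 147 and 139 CPM with TGFB1, and the 4 gut epithelial markers to 82.0, 4.23, 3.13 and 3.02 CPM. Cycling markers lay at 223 and 78.6 CPM in the control and 28.5 and 50.3 CPM with TGFB1. The 6 epithelial markers did not set control replicate 1 apart in this way, at 1704 and 995 CPM in the control and 1508 and 1263 CPM with TGFB1. The part of these in the result was not tested. Without control replicate 2, 8 members were called, with ITGA6, LAMA1, ITGB8, LAMA5 and HSPG2 lower and ITGA4, ITGA2 and COL4A1 higher. COL4A1 lay at 519 and 869 CPM in control COL-positive cells and at 1267 and 995 CPM with TGFB1 (0.92 ± 0.41, adjusted p = 0.34), and COL4A2 at 897 and 721 against 836 and 801 CPM (0.31 ± 0.24, adjusted p = 0.58).

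The difference between the TGFB1 effects in the 2 classes was tested itself. It was called for 15 of the 41 members tested, 14 with a negative difference (COL-positive minus EPCAM-positive), beside 6.32% of 18747 genes called (2.61% higher, 3.71% lower). ITGB6 had -2.87 ± 0.68 (edgeR adjusted p = 0.0099) and ITGA3 -2.10 ± 0.30. LAMA2 had -2.28 ± 0.50, on 0 and 13 UMIs in control EPCAM-positive cells and 38 and 34 with TGFB1, where the mesenchymal markers moved as given above. ITGAV had -1.87 ± 0.20 (adjusted p = 8.5e-07) and COL4A1 -1.66 ± 0.23 (adjusted p = 3.6e-05). A negative difference need not be a smaller rise. LAMA5 lay at 137 and 62.4 CPM in control EPCAM-positive cells against 92.6 and 96.5 CPM with TGFB1, and at 99.4 and 29.6 against 17.5 and 16.6 CPM in COL-positive cells. HSPG2 lay at 345 and 245 against 245 and 284 CPM, and at 173 and 56.5 against 42.5 and 53.3 CPM. Neither was called within COL-positive cells. The ITGB6 difference was not called without control replicate 1 (-1.95, adjusted p = 0.34). COL4A1, ITGA1, ITGA2, ITGA3, ITGAV, LAMA2 and LAMA5, 7 of the 15, were kept under every alternative run. For LAMA3 the difference was not called, at -3.00 ± 1.39.

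**Figure D5:**
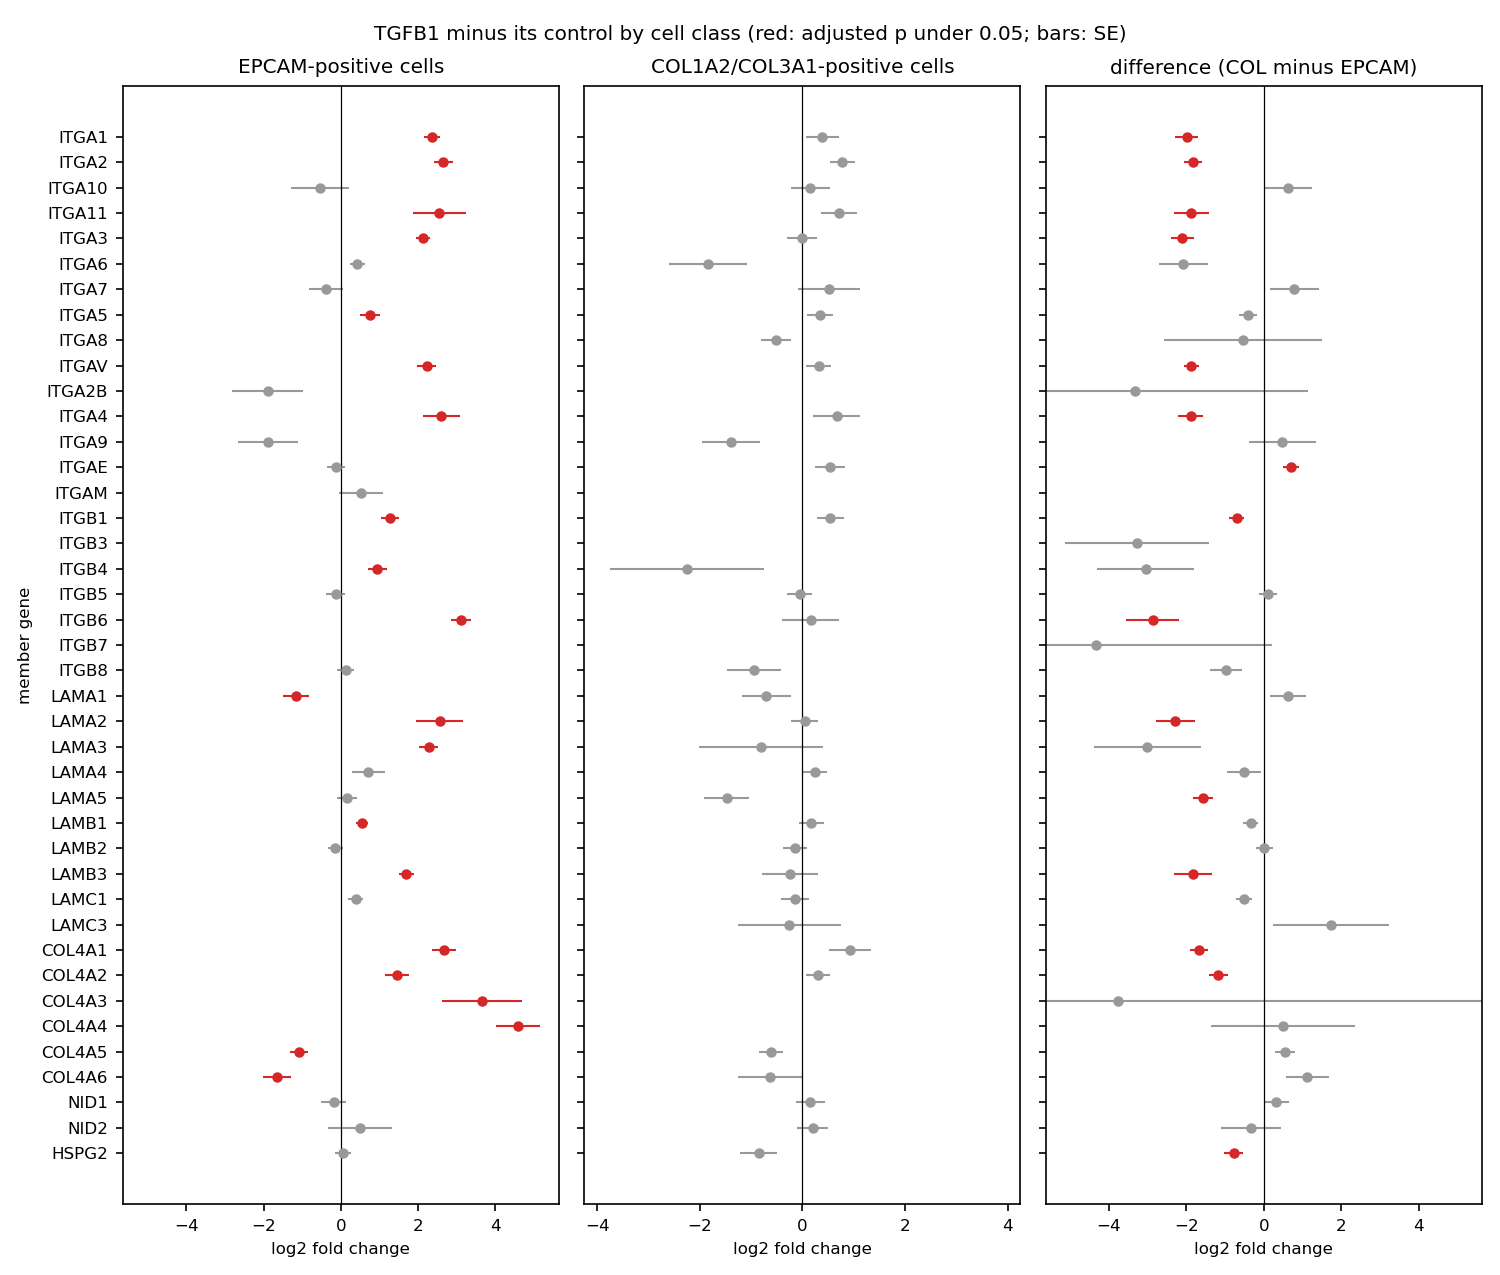
Log2 fold change of the tested members (1 not drawn) with TGFB1 (x axis, SE bars, called members in red) in EPCAM-positive cells, in COL-positive cells, and the difference of these effects (COL-positive minus EPCAM-positive). Called members appear in the left and right panels and none in the middle one; 14 of the 15 called differences lie left of 0, and bars that run past the axis belong to members with few UMIs.

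OA. With OA, 13 members were higher and 13 lower in whole libraries, of 43 tested, beside 43.3% of 19366 genes called (21.7% higher, 21.6% lower). With library totals in place of TMM the split was 11 higher and 19 lower. The makeup of the libraries moved with this: COL-positive cells were 2.73% ± 0.466 of thinned cells with OA and 41.2% ± 1.99 in the OA control (exact permutation p = 0.33, the smallest possible), and the mesenchymal markers summed to 53.6 and 74.6 CPM against 1418 and 2254 CPM. The part of this shift in the whole-library values was not tested. Values within EPCAM-positive cells are given beside them for some members. Marker sums of EPCAM-positive cells differed as well: gut epithelial markers lay at 565 and 340 CPM in the control and 1349 and 1044 CPM with OA, leukocyte markers at 23 and 16.4 against 96.1 and 83.4 CPM, and endothelial markers at 1.13 and 0.376 against 4.93 and 3.96 CPM. Of the leukocyte markers only CD68 and CD3D passed 1 CPM in any whole library, while PTPRC, CD14 and CSF1R did not. Cycling markers lay at 130 and 139 against 57.8 and 67.7 CPM and smooth muscle markers at 17.1 and 14.5 against 2.05 and 2.95 CPM. Their part in the values was not tested.

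LAMA3 and LAMB3 had their highest levels of the 9 groups in OA libraries. LAMA3 lay at 48.5 and 33.3 CPM in the control and 271 and 243 CPM with OA (2.97 ± 0.28, edgeR adjusted p = 6.6e-06) and LAMB3 at 43.5 and 38.3 against 153 and 137 CPM (2.16 ± 0.19). Within EPCAM-positive cells LAMA3 rose from 57.2 and 47.8 to 282 and 247 CPM (2.56 ± 0.24, adjusted p = 9.8e-06), and LAMB3 was higher by 1.64 ± 0.19. The laminin receptor chain ITGA6 lay at 69.9 and 58.7 CPM in control libraries and 201 and 193 CPM with OA, and within EPCAM-positive cells at 86.5 and 80.9 against 208 and 194 CPM (1.49 ± 0.19). ITGB4, its partner, was called in whole libraries (0.96 ± 0.28, adjusted p = 0.013) and not within EPCAM-positive cells (0.64 ± 0.24, adjusted p = 0.050). The whole-library call of ITGB4 was lost under at least 1 alternative. Of the 9 laminin receptor and hemidesmosome genes outside the membership, 5 were higher and 1 lower in whole libraries, beside 43.3% of all genes called, including COL17A1 (2.32) and DST (2.80), both hemidesmosome components, and 4 were higher and 2 lower within EPCAM-positive cells. In whole libraries 1 of 16 other basement membrane genes was higher and 9 were lower, 3 of 15 other integrin ligands were higher and 9 lower, and 3 of 24 adhesome genes were higher and 8 lower. Within EPCAM-positive cells these counts were 1 and 8, 3 and 8, and 2 and 4.

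Some other integrins rose with OA within EPCAM-positive cells. ITGB6 lay there at 24.4 and 34.8 CPM in the control and 98.6 and 97.7 CPM with OA (1.98 ± 0.25, edgeR adjusted p = 7.1e-05). ITGAV rose from 90.5 and 106 to 226 and 208 CPM (1.38 ± 0.23) and ITGB8 from 32.0 and 35.2 to 76.3 and 63.7 CPM (1.30 ± 0.23). In the same cells 13 members were higher and 9 lower of 38 tested, beside 35.9% of 17527 genes called (19.1% higher, 16.8% lower). With library totals the split there was 9 higher and 11 lower. The count was 13 without OA replicate 1 and 11 without control replicate 2, and 11 calls were kept under every alternative run, among them those of ITGA1, ITGA6, ITGA7, ITGAV, ITGB6, ITGB8, LAMA3, LAMA4, LAMB3 and COL4A6. Of these, ITGA7 and COL4A6 were lower with OA. ITGA7 lay at 2.13 and 2.86 CPM in control EPCAM-positive cells against 0.578 and 0.389 CPM, and COL4A6 at 6.59 and 9.19 against 1.30 and 1.09 CPM. ITGA3 and ITGB1 were higher in EPCAM-positive cells by 0.54 and 0.80, but both calls were lost without any 1 of the 4 libraries.

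LAMA4, higher in COL-positive cells on average over the OS groups, rose with OA in whole libraries and in EPCAM-positive cells. In COL-positive cells it lay at 70.9 and 73.1 CPM in the OA control, and in EPCAM-positive cells at 12.0 and 7.38 CPM. With OA its level in EPCAM-positive cells was 47 and 42.7 CPM (2.41 ± 0.31, edgeR adjusted p = 8.3e-05), and in whole libraries it rose from 24.9 and 30.4 to 44.7 and 42.0 CPM (0.99 ± 0.20). The 60 and 38 COL-positive cells of the OA libraries had 3 UMIs and 1 UMI of it, or 8.44 and 4.27 CPM. LAMA2, in contrast, fell in whole libraries from 7.68 and 12.0 to 0.610 and 0.459 CPM (-3.84 ± 0.37) and was not called within EPCAM-positive cells (0.05 ± 0.68).

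Several integrin, collagen and laminin genes were lower in OA libraries. ITGA11 lay at 8.15 and 14 CPM in the control and 0.0740 and 0.134 CPM with OA (-6.35 ± 0.67), and ITGA8 at 8.54 and 11.4 against 0.222 and 0.306 CPM (-4.89 ± 0.35). In COL-positive cells ITGA8 lay at 40.1 and 36.7 CPM in the control and 31.0 and 38.4 CPM with OA. ITGA11 lay there at 36.8 and 39.6 against 5.63 and 12.8 CPM, on 2 and 3 UMIs with OA. In EPCAM-positive cells neither gene passed 0.260 CPM in these libraries. ITGA10, another collagen receptor chain, lay at 2.15 and 3.83 against 0.0925 and 0.0957 CPM (-4.60 ± 0.63, edgeR adjusted p = 9e-05), and ITGA4 at 10.4 and 16.5 against 3.88 and 0.402 CPM (-2.28 ± 0.72). Of the 26 whole-library calls with OA, 21 were kept under every alternative run, and ITGA4 was not among these. LAMC3 had 108 UMIs in the control libraries and 1 with OA, a ratio in CPM of 0.00945 (95% counting interval 0.000237 to 0.0538). COL4A1 fell from 86.5 and 150 to 12.2 and 10.2 CPM (-3.04 ± 0.45, edgeR adjusted p = 0.00015) and COL4A2 from 113 and 156 to 23.9 and 20.3 CPM (-2.26 ± 0.27). Within EPCAM-positive cells these 2 genes were lower by smaller amounts, COL4A1 from 18.9 and 30.9 to 11.8 and 9.45 CPM (-0.97 ± 0.30, adjusted p = 0.023) and COL4A2 from 47.7 and 67.6 to 23.3 and 19.2 CPM (-1.19 ± 0.30). The COL4A2 call there was lost without OA replicate 2 (adjusted p = 0.068) or control replicate 2 (0.060). The COL4A1 call there was lost without OA replicate 1 (adjusted p = 0.058), OA replicate 2 (0.16) or control replicate 2 (0.21). LAMA1 was not called in whole libraries (-0.73 ± 0.28, adjusted p = 0.051; -1.08, adjusted p = 0.011, with library totals) and was lower within EPCAM-positive cells, at 16.7 and 35.6 against 4.57 and 11 CPM (-1.49 ± 0.35, adjusted p = 0.0047). That call was lost without OA replicate 1 or control replicate 2. NID2 fell in whole libraries (-3.33 ± 0.41), whereas NID1 and HSPG2 were not called (-0.40 ± 0.26 and 0.06 ± 0.25). The whole-library calls of ITGA11, ITGA8, LAMC3 and NID2 had no matching call within EPCAM-positive cells.

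Few COL-positive cells were left with OA, and they were unlike those of the control. Their mesenchymal markers summed to 1376 and 1482 CPM against 6223 and 6614 CPM, their epithelial markers to 4172 and 3711 against 951 and 998 CPM, and their basal squamous markers to 1562 and 55.5 CPM against 66 and 82.5 CPM. ITGB6 lay at 411 and 461 CPM in these cells and at 6.78 and 4.35 CPM in control COL-positive cells. The part of these markers in the results that follow was not tested.

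The test within COL-positive cells took OA replicate 1 alone, because the 38 cells of replicate 2 were under the minimum of 50, and the lone library was assumed to vary like the other groups. With OA, 4 of the 36 members tested were higher and 4 lower in edgeR, beside 3.76% of 14189 genes called (2.3% higher, 1.46% lower). ITGB6 was higher by 6.01 ± 0.45 (edgeR adjusted p = 4.3e-06), LAMA3 by 3.74 ± 0.98 on 8 UMIs in the OA library, LAMB3 by 3.76 ± 0.89 on 9 UMIs, and ITGAV by 1.33 ± 0.31. LAMA4 lay at -3.28 ± 0.56 (adjusted p = 0.0040), COL4A1 at -2.61 ± 0.64 and COL4A2 at -1.82 ± 0.35. NID2, also called as lower, had 0 UMIs in OA replicate 1, but 7 UMIs (29.9 CPM) in the replicate outside the test, against 25.9 and 27.0 CPM in the control. The calls of COL4A2, ITGB6 and LAMA4 were kept under every alternative run, and 4 members were called without control replicate 2. Of the neighbouring lists, 2 of 24 adhesome genes, 2 of 9 laminin receptor and hemidesmosome genes and 2 of 15 other integrin ligands were higher, and 4 of 15 other basement membrane genes and 1 integrin ligand were lower.

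The difference between the OA effects in the 2 classes (COL-positive minus EPCAM-positive) was called for 11 of 41 members, 5 with a positive and 6 with a negative value, beside 8.36% of 18747 genes called (1.8% higher, 6.56% lower). Its median over all genes was -0.80, and -0.19 with library totals, under which 5 positive and 3 negative members were called. LAMA4, higher with OA in EPCAM-positive cells and lower in COL-positive cells, had -6.01 ± 0.61 (edgeR adjusted p = 1.8e-06). ITGB6 had 3.85 ± 0.44 and COL4A1 -2.01 ± 0.38. COL4A5 had 1.88 ± 0.41: it lay at 18.3 and 27.6 against 9.63 and 13.1 CPM in EPCAM-positive cells. In COL-positive cells it lay at 26.3 and 26.5 CPM in the control and 64.7 CPM in OA replicate 1. OA replicate 2, outside the test, had 34.2 CPM there (8 UMIs). The calls of LAMA4, ITGB6, COL4A1, COL4A5, COL4A6 and ITGA10 were kept under every alternative run. No such run held the COL-positive cells of OA replicate 2. ITGA10 had 0 UMIs in the EPCAM-positive cells of OA replicate 1 and 5 in its COL-positive cells, but 5 and 0 in replicate 2. COL4A6 lay at 7.73 and 4.97 CPM in control COL-positive cells, 19.7 CPM in those of OA replicate 1 and 4.27 CPM in replicate 2. In these cells LAMA4, ITGB6, COL4A1 and COL4A5 lay on the same side of the control in both OA libraries.

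PA. None of the 43 members tested in whole libraries was called with PA by edgeR, beside 0.0465% of 19366 genes (9 genes). An unadjusted p under 0.05 was reached by 6 members and by 540 of all genes. The median log2 fold change was -0.11 over the members and 0.02 over all genes. The member nearest to the threshold was ITGA8, at 2.47 and 3.95 CPM in the control and 1.05 and 1.10 CPM with PA (-1.57 ± 0.32, adjusted p = 0.19). DESeq2, and edgeR with no filter on low counts, each called ITGA8 and no other member. LAMA4 had -0.71 ± 0.21 (adjusted p = 0.91), COL4A1 -0.74 ± 0.42, COL4A2 -0.76 ± 0.26 and ITGB6 -0.11 ± 0.24 (adjusted p = 1 for the last 3). In all cells mesenchymal markers summed to 258 and 413 CPM in the control and 124 and 243 CPM with PA, and smooth muscle markers to 34.0 and 72.3 against 13.4 and 15.9 CPM. The part of these in the values was not tested. No gene of the 4 neighbouring lists was called by edgeR, and an unadjusted p under 0.05 was reached by 1 of 24 adhesome genes, 1 of 16 other basement membrane genes, 1 of 9 laminin receptor and hemidesmosome genes and 2 of 15 other integrin ligands. Within EPCAM-positive cells none of 38 members was called (0.103% of 17527 genes; 4 members and 435 of all genes with an unadjusted p under 0.05), and within COL-positive cells none of 36 (0.0% of 14189 genes; 2 members and 581 of all genes). The difference between classes was called for none of 41 members (0.0107% of 18747 genes; 2 members and 689 of all genes with an unadjusted p under 0.05).

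ULA organoids at day 34 and day 21. In whole libraries 17 members were higher at day 34 and 1 was lower, of 41 tested, beside 15.6% of 22258 genes called (8.42% higher, 7.19% lower). LAMA3 lay at 4.38, 3.03 and 4.17 CPM on day 21 and at 53.9 and 20.1 CPM on day 34 (3.13 ± 0.39, edgeR adjusted p = 0.0042). LAMB3 (2.09 ± 0.23), ITGB4 (1.56 ± 0.20) and ITGA6 (1.06 ± 0.26) were called with it. ITGB6 rose from 15.3, 12.4 and 16.6 to 62.8 and 71.0 CPM (2.05 ± 0.18, adjusted p = 0.0015), and ITGA4 from 3.11, 3.80 and 2.29 to 18.0 and 13.7 CPM (2.24 ± 0.26). In none of these 3 genes with printed levels did the days overlap. The pair COL4A5 and COL4A6 rose, by 1.34 ± 0.14 and 1.78 ± 0.20, with COL4A5 at 19.5, 17.7 and 19.5 CPM against 52.6 and 52.5 CPM, whereas COL4A1 and COL4A2 were not called (0.80 ± 0.23, adjusted p = 0.055, or 0.93, adjusted p = 0.032, with library totals; and 0.39 ± 0.22). ITGA1 was the lower member (-0.83 ± 0.22, adjusted p = 0.046). NID1 and HSPG2 were not called, at 0.17 ± 0.39 and -0.30 ± 0.18. Of the neighbouring lists, 9 of 24 adhesome genes were higher and none lower, 6 of 15 other integrin ligands were higher and none lower, 4 of 9 laminin receptor and hemidesmosome genes were higher and 1 lower, and 2 of 16 other basement membrane genes were higher and 3 lower.

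Without the double-positive cells 7 members were called, and the log2 fold change was 0.96 for LAMA3 (adjusted p = 0.10), 0.57 for LAMB3 (0.45) and 2.00 for ITGB6 (0.084). The markers of basal squamous epithelium (KRT5, KRT14, TP63, KRT15) moved with the day, from 8.14 to 13.8 CPM in the day 21 libraries to 279 and 889 CPM at day 34. Hepatocyte markers summed to 1949 to 2188 CPM at day 21 and 81.2 and 747 CPM at day 34, gut epithelial markers to 137 to 233 CPM and 2.39 and 16.1 CPM, and cycling markers to 418 to 542 CPM and 226 and 315 CPM. The part of these in the result was not tested. The count of member calls was 8 without day 21 replicate 1, 11 without replicate 2 and 8 without replicate 3. With the replicate number as a block, which leaves 1 residual degree of freedom, edgeR called no member (22 had an unadjusted p under 0.05). No single call was therefore kept under every alternative.

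Within ULA COL-positive cells 17 of 37 members were higher at day 34 and 2 were lower, beside 17.7% of 17413 genes called (10.5% higher, 7.2% lower). LAMA3, ITGB6 and LAMB3 had the largest values. LAMA3 lay at 0.187, 0.170 and 0.0473 CPM on day 21 and at 7.10 and 10.6 CPM on day 34 (5.81 ± 0.43, edgeR adjusted p = 0.00045), and ITGB6 at 0.467, 0.578 and 0.567 against 5.07 and 30.1 CPM (4.86 ± 0.69). LAMB3, ITGA6 and ITGB4 were higher by 4.72, 4.28 and 3.34. Epithelial markers in these cells summed to 712 to 923 CPM on day 21 and to 747 and 2727 CPM on day 34, and basal squamous markers to 0.578 to 0.851 CPM and to 35.9 and 472 CPM, so the day 34 replicates differed widely in both and their part in the result was not tested. LAMB1, a chain of many laminins, rose from 60.7, 48.8 and 49 to 161 and 111 CPM (1.23 ± 0.20), and NID2 fell from 24.7, 18.0 and 25.4 to 9.01 and 4.85 CPM (-1.82 ± 0.29). Without day 21 replicate 1, 12 members were called, and 10 calls were kept under every alternative run: ITGA1, ITGA3, ITGA4, ITGB4, ITGB6, LAMA3, LAMA5, LAMB1, LAMB3 and NID2.

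Within ULA EPCAM-positive cells the test took day 34 replicate 2 alone (747 cells), because replicate 1 had 23, and that library was assumed to vary like those of day 21. At day 34, 13 of 34 members were higher and 2 lower, beside 17.6% of 17581 genes called (9.27% higher, 8.32% lower). LAMA2 lay at 0.210, 0.149 and 0.179 CPM (5, 2 and 4 UMIs) on day 21 and at 7.61 CPM (36 UMIs) on day 34 (4.96 ± 0.50, edgeR adjusted p = 8.4e-05). ITGB6 rose from 8.15, 8.65 and 7.37 to 34.9 CPM (1.76 ± 0.21), LAMB3 from 12.1, 13.0 and 10.4 to 39.1 CPM (1.37 ± 0.21) and LAMA3 from 10.5, 11 and 10.3 to 28.1 CPM (1.05 ± 0.21). COL4A2 and NID1 were lower, at -1.32 ± 0.27 and -1.04 ± 0.26. Those 2 calls and the higher calls of COL4A6, ITGA1 and ITGB1 were lost with stricter cell filters, and the other 10 were kept under every alternative run. In these cells basal squamous markers summed to 2.46 to 4.83 CPM on day 21 and 620 CPM on day 34, mesenchymal markers to 21.1 to 31.0 and 101 CPM, gut epithelial markers to 534 to 618 and 110 CPM, and hepatocyte markers to 5737 to 7440 and 5184 CPM, and their part in the result was not tested. Of the neighbouring lists, 10 of 14 other integrin ligands were higher and 1 lower, 5 and 3 of 15 other basement membrane genes, 4 and 1 of 9 laminin receptor and hemidesmosome genes, and 5 and 2 of 23 adhesome genes.

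The day effect differed between the classes for 21 of 40 members, 16 with a positive difference (COL-positive minus EPCAM-positive) and 5 with a negative one, beside 20.5% of 19877 genes called (12.3% higher, 8.17% lower), again with replicate 2 alone for day 34. The difference was 5.03 ± 0.39 for LAMA3, 4.85 ± 0.19 for ITGA6 (edgeR adjusted p = 1.5e-13), 3.91 ± 0.27 for ITGB6 and 3.78 ± 0.25 for ITGB4. It was -4.41 ± 0.45 for LAMA2 and -2.29 ± 0.20 for ITGA1. In COL-positive cells of day 34, ITGA6 lay at 87.3 CPM in replicate 2 and at 13.1 CPM in replicate 1, which is outside this test, beside the markers of these replicates given above. In all, 13 of the 21 calls were kept under every alternative run.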

How the data were processed

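Single-cell RNA was measured in 19 libraries of 9 groups, taken from the sample titles. The deposited matrices hold raw UMI counts per gene and barcode, with no normalization, per the file headers and the values. Their headers give software version 3.0.2 (ULA, TGFB1 and PA experiments) or Cell Ranger 6.0.2 (OA, its control and untreated). The submitters' processing notes name bcl2fastq, Cell Ranger 3.0.2, Scanpy and GRCh38. The sources used here do not give the annotation. The files list 58721, 33538 and 36601 genes by experiment, and the 14 OS libraries were compared over 32732 shared identifiers. Gene positions and overlaps were read from GENCODE 44.

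Barcodes needed 500 or more genes and a mitochondrial share of 20% or less, which kept 120240 of 138053. No doublet caller was run, and double-positive cells entered neither class. Between any 2 libraries, 1 to 32 barcodes were shared, at most 0.581% of the smaller library. Counts were summed per library, or per library and class where it held at least 50 cells, and tested in edgeR 4.0.16 (R 4.3.3; TMM, filterByExpr, quasi-likelihood test, Benjamini-Hochberg over all genes, threshold 0.05). OS libraries shared 1 fit with 7 residual degrees of freedom, and ULA libraries had their own. Class fits held the library as a term. OA in COL-positive and ULA day 34 in EPCAM-positive cells kept 1 library, assumed to vary like the other groups. Shares of cells were compared by exact two-sided permutation tests after thinning cells to 1000 UMIs, which left out 6800 shallower cells. Counting intervals cover counting error only. SEs are the log2 fold change divided by the square root of F.

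On simulated counts for the ULA comparison, edgeR called 12 of 100 genes changed 2-fold and 82 of 100 changed 4-fold. Beside these right calls it made 20 false calls among 22258 genes. The simulated TGFB1 comparison had 3 false calls among 19366 genes, beside 28 and 84 right calls. The simulated OS class comparison had 15 false calls among 18747 genes, beside 95 and 100 right calls. For the difference of TGFB1 effects there were 8 false calls, beside 35 and 81 right calls. In the ULA, OS class and TGFB1 difference simulations the share of calls that were false was above the adjusted p threshold. Calls between ULA days in whole libraries, between OS classes and for the TGFB1 difference may therefore hold more false ones than that threshold states.

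The members and lists were chosen with earlier results of these data known. The rule for naming took up to 10 called members of largest fold change in each comparison and a fixed set, by role; some of these are given by counts alone, and 1 member is counted but not reported here. Alternatives were DESeq2 1.42.0, no low-count filter, stricter cell filters (1000 genes, 10% mitochondrial), library totals without TMM, a class minimum of 2 UMIs, leaving out double-positive cells, a replicate block and leaving out each library. The crossed pairing was chosen after seeing the data.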

Additional observations from a re-analysis of the deposited data

Results flagged for a closer look

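The effect of TGFB1 differed between COL-positive and EPCAM-positive cells by a test of the difference itself for 15 members (edgeR, adjusted p under 0.05 over all genes, 2 libraries a group). The differences below are log2 values, COL-positive minus EPCAM-positive. Among integrin chains the difference was -1.99 for ITGA1, -1.82 for ITGA2, -2.10 for ITGA3, -1.89 for ITGA4, -1.87 for both ITGA11 and ITGAV, -0.70 for ITGB1 and -2.87 for ITGB6. ITGAE differed in the other direction, by 0.70. Among laminins it was -2.28 for LAMA2, -1.58 for LAMA5 and -1.84 for LAMB3. For the collagen pair it was -1.66 for COL4A1 and -1.18 for COL4A2, and for the linker HSPG2 it was -0.78. The calls of COL4A1, ITGA1, ITGA2, ITGA3, ITGAV, LAMA2 and LAMA5 were kept under every alternative run. Those of ITGAE and HSPG2 were each lost under 6 of the 9 alternatives run for them, those of ITGA11 and LAMB3 under 3, that of ITGB1 under 2, and those of ITGA4, ITGB6 and COL4A2 under 1 each. No member was called within COL-positive cells alone. In COL-positive cells hepatocyte markers summed to 887 CPM in control replicate 1, 127 CPM in control replicate 2 and 147 and 139 CPM with TGFB1, gut epithelial markers to 82.0, 4.23, 3.13 and 3.02 CPM, cycling markers to 223, 78.6, 28.5 and 50.3 CPM, and epithelial markers to 1704, 995, 1508 and 1263 CPM. The part of these in the differences was not tested.

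The effect of OA differed between the classes for 11 members by the same test, with 1 OA library of 60 COL-positive cells. The difference was -1.89 for ITGA1, 6.03 for ITGA10, 2.69 for ITGA4, -2.04 for ITGB5, 3.85 for ITGB6, -6.01 for LAMA4, -2.01 for COL4A1, 1.88 for COL4A5, 3.60 for COL4A6, -1.89 for NID1 and -11.70 for NID2. NID2 had 0 UMIs in the COL-positive cells of that library and 7 in those of the other OA library. ITGA10 had 5 and 0 UMIs there, and 0 and 5 in EPCAM-positive cells. In COL-positive cells ITGA4 lay at 40.8 and 42.5 CPM in the control and 87.3 and 34.2 CPM with OA. COL4A6 lay there at 7.73 and 4.97 against 19.7 and 4.27 CPM, and ITGA1 at 78.1 and 107 against 64.7 and 137 CPM. COL4A5 lay at 26.3 and 26.5 against 64.7 and 34.2 CPM. ITGB6, LAMA4, COL4A1, COL4A5 and NID1 were on the same side of the control in both OA libraries, COL4A5 on 23 and 8 UMIs with OA. The calls of ITGA1, ITGA4, ITGB5, NID1 and NID2 were each lost under at least 1 alternative. The marker sums of these cells moved with OA as given in the results, and their part in the differences was not tested.

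The change from day 21 to day 34 differed between the classes of ULA organoids for 21 members, of which 20 follow, with 1 day 34 library. Among integrin chains the difference was -2.29 for ITGA1, 0.59 for ITGA2, 1.38 for ITGA3, -3.22 for ITGA4, 4.85 for ITGA6, -1.95 for ITGA9, -0.59 for ITGAE, 3.78 for ITGB4, 3.91 for ITGB6 and 8.68 for ITGB7. Among laminins it was 0.76 for LAMA1, -4.41 for LAMA2, 5.03 for LAMA3, 0.82 for both LAMA5 and LAMB1, 3.87 for LAMB3 and 0.69 for LAMC1. It was 1.44 for COL4A1, 1.56 for COL4A2 and 1.03 for HSPG2. ITGB7 had 0 UMIs in the EPCAM-positive cells of the day 34 library and 6 in its COL-positive cells. The calls of ITGA2, ITGA4, ITGA9, ITGAE, ITGB7, LAMA1, LAMA5 and LAMC1 were each lost under at least 1 alternative. In COL-positive cells of that library basal squamous markers summed to 472 CPM and epithelial markers to 2727 CPM, against 35.9 and 747 CPM in the other day 34 library, and their part in the differences was not tested.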

How the results depend on the processing

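Counts below are members called of those tested. Leaving out 1 library at a time gave 15 to 21 for TGFB1, 22 to 26 for OA, 0 to 0 for PA and 8 to 27 for ULA day 34 against day 21 in whole libraries. Within EPCAM-positive cells it gave 16 to 19 (TGFB1), 11 to 19 (OA), 0 to 0 (PA) and 15 to 16 (ULA), and within COL-positive cells 0 to 8 (TGFB1), 4 to 7 (OA), 0 to 0 (PA) and 12 to 22 (ULA). Between classes it gave 29 to 31 (OS) and 31 to 34 (ULA), and for the difference of effects 11 to 14 (TGFB1), 10 to 11 (OA), 0 to 0 (PA) and 15 to 22 (ULA). A group left with 1 library was assumed to vary like the others. For PA, DESeq2 and edgeR without a low-count filter each called 1 member in place of 0. Without that filter 2 were called within COL-positive cells with TGFB1 in place of 0. For ULA, leaving out double-positive cells left 7, of which 5 were among the 18. With a replicate block, counts in whole libraries were 22 (TGFB1), 27 (OA), 0 (PA) and 0 (ULA), within EPCAM-positive cells 20 (TGFB1), 0 (PA) and 19 (OA), and within COL-positive cells 0 (TGFB1), 6 (OA), 0 (PA) and 13 (ULA). The block left no residual degrees of freedom for ULA within EPCAM-positive cells. Deviations of same-numbered libraries from their group means had correlations of -0.222 for TGFB1, 0.0887 for PA, 0.0408 for OA and -0.166 and -0.27 for ULA. In a group of 2 libraries these deviations mirror each other. The correlations therefore cannot decide whether same-numbered libraries share a batch or a differentiation. The crossed pairing of the TGFB1 libraries, chosen after seeing the data, gave 23. Library totals in place of TMM moved the median of all genes by -0.34 for OA and -0.19 for TGFB1 in whole libraries, by 0.17 between OS classes, by 0.36 for ULA within EPCAM-positive cells and by 0.61 for the OA difference of effects. The COL-positive share differed by 6.32 percentage points for TGFB1 and -38.5 for OA after thinning and by 4.81 and -34.8 without it. For ULA it was 12.4 after thinning and -3.22 without. NID1 in ULA libraries went from 0.17 to -0.77 without day 34 replicate 1 and 0.72 without day 34 replicate 2. COL4A6 between OS classes went from 0.40 to -0.051 with stricter cell filters and ranged from -0.035 to 0.493 with 1 library left out. The cause was not tested for any of these. Stricter cell filters were not run for OA within COL-positive cells or its difference, since OA replicate 1 then had 49 such cells, and for PA they left out control replicate 1, with 37. Of the single-member values, 4572 kept direction and side of the threshold, 314 lost a call, 88 gained one and 3 reversed. Each group has 2 or 3 libraries, and OA within COL-positive cells and day 34 within EPCAM-positive cells rest on 1 library each.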
